A study of Mus musculus with 20 samples.

Results

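The 45 mouse genes described here are genes known to be imprinted, that is, transcribed mainly from the copy inherited from 1 parent. For some of them this holds only in certain tissues or transcripts. All 45 were named by gene symbol and matched to the Ensembl identifiers of the count tables, where 43 of the 45 had a row, out of 39179 genes counted. The list was drawn up with the counts of these libraries in view and with attention to genes at or near 0 counts in 1 group, so levels near 0 are given below as a description with no test. The measurement was RNA-seq of immortalised epithelial cells from the kidney of C57BL/6J mice, with 5 libraries in each of 4 groups. Group Fh1_fl_fl carries floxed Fh1, the gene for the citric acid cycle enzyme fumarate hydratase, and is given as Fh1 wild type. Groups clone1 and clone19 are given as Fh1 deletion. Group Rec is given as having wild-type Fh1 expressed again. All 4 groups were grown in the same medium with serum and added uridine. Each of clone1 and clone19 is 1 clone by its name. The labels do not say which clone Rec came from, which part of Fh1 was removed, or that the 5 libraries of a group are separate cultures, and p-values therefore reflect the spread among these libraries alone, which may be technical. The comparison asks how imprinted transcription differs between Fh1-competent and Fh1-deficient cells and after Fh1 is restored.

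Imprinted genes lie in clusters. In each cluster, a control region is methylated on the DNA of 1 parental copy in the egg or sperm, and after fertilisation that mark is copied at every cell division while most other methylation is erased and rebuilt. The methylated copy of a promoter is silent and the other copy is transcribed, or a long noncoding RNA from one copy silences its neighbours. Because only 1 copy of such a gene is active, a change that silences it leaves no transcript, and loss of the mark on the silent copy can allow both to be transcribed. Several imprinted genes regulate fetal growth. In the kidney and other adult organs many of them are low. RNA counts of inbred cells do not tell the 2 parental copies apart, and no parental origin was measured here. The allele given for each gene below is textbook knowledge, and whether it applies in these cells was not tested.

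Library totals ran from 5988447 to 18972176 counts (median 10485784), so that 3 counts in 1 library stand for 0.158 to 0.501 CPM (read counts scaled to a common library size, on library sizes scaled by the trimmed mean of M-values). All 10 kidney tubule epithelium markers on the list used were counted in all 4 groups, with sums over the list of 3547 to 4098.5 CPM in Fh1_fl_fl, 2722 to 3359.7 in clone1, 2138.5 to 2449 in clone19 and 4370.0 to 4818 in Rec. These sums hide members that went different ways. In Fh1_fl_fl, clone1, clone19 and Rec, Lhx1 averaged 25.9, 0.0398, 0.0681 and 1.98 CPM, which is near 0 in both clones by the rule used below, Pax2 272, 45.4, 41.98 and 95.9 CPM and Epcam 439, 86.6, 226 and 422 CPM, while the keratin genes Krt8, Krt18 and Krt19 were highest in Rec, with means of 958, 1158 and 681 CPM there against 564, 684 and 348 CPM in Fh1_fl_fl. The highest sum of 7 fibroblast markers was 15.4 CPM, of 5 endothelial markers 10.7 CPM and of 5 leukocyte markers 20.6 CPM, all in clone19. Of 4 podocyte markers, only Podxl passed the count filter, and the sum ran from 113.5 to 265.8 CPM. The sum of 6 pluripotency and germ cell markers was at most 3.15 CPM. Fh1 itself, counted over its whole gene, averaged 92.3, 112, 84.7 and 71.3 CPM in Fh1_fl_fl, clone1, clone19 and Rec, so it did not separate the groups by label; a count over the whole gene does not check a deletion of part of it. The 4 Y-linked genes examined (Ddx3y, Eif2s3y, Kdm5d and Uty) averaged 14.1 to 30.7 CPM in Fh1_fl_fl and at most 0.0681 CPM in each other group. Some libraries stood apart from the others of their group. In clone19 replicate 3, 8.20% of counts fell on the locus model Gm42418, against a median of 0.314% over the 20 libraries. Without that library, the numbers of imprinted genes called over 2-fold below, in both directions together, were 14 for clone1 and 10 for clone19 against Fh1_fl_fl, 13, 16 and 15 for Rec against Fh1_fl_fl, clone1 and clone19, and 8 between the clones, which are the numbers found with it. Over the tested genes, the SD of the log2 difference from the mean of the other 4 libraries of a group was 0.284 in clone1 replicate 1 and 0.278 in clone19 replicate 2, against 0.138 to 0.234 in the other 18 libraries. In clone1 replicate 1, 3.35% of reads lay outside genes, where the rest of clone1 had 4.51% to 5.32%, and it was the lowest clone1 library for Ube3a, Peg10 and Ppp1r9a below. Rec replicate 2 had the lowest such share of its group (3.28%) and the highest SD there (0.227). In the same order of comparisons, the numbers called were 13, 10, 13, 17, 15 and 8 without clone1 replicate 1, 14, 10, 13, 16, 14 and 8 without clone19 replicate 2 and 14, 10, 13, 15, 14 and 8 without Rec replicate 2. The part of the marker and Y-linked differences in the results below was not tested.

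Most imprinted promoters are rich in the CpG dinucleotides that carry DNA methylation, so the sequences of 6 of them are shown, with every CpG in capitals. They are RefSeq windows of 300 bases on build GRCm38.p6, from 250 bases before to 50 after an annotated transcription start, 5′ to 3′ on the strand of the gene. Where RefSeq has several starts, the window with most CpGs is shown. The first 4 belong to genes transcribed from the paternal copy that were at or near 0 in Rec: Peg3 (chr7:6730370-6730669, minus strand, 13 CpGs), Mest (chr6:30737800-30738099, plus strand, 17 CpGs), Plagl1 (chr10:13090582-13090881, plus strand, 26 CpGs) and Ndn (chr7:62348027-62348326, plus strand, 11 CpGs). The last 2 belong to paternally transcribed genes that were counted in every library of all 4 groups: Mcts2 (chr2:152686898-152687197, plus strand, 25 CpGs) and Zrsr1 (chr11:22971755-22972054, plus strand, 10 CpGs).
Peg3: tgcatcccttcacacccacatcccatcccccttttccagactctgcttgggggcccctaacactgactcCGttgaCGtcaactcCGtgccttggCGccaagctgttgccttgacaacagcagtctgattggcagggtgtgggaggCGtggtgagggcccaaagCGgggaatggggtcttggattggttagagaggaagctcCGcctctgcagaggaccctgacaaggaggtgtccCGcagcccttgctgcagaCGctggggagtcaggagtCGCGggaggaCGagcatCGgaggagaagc
Mest: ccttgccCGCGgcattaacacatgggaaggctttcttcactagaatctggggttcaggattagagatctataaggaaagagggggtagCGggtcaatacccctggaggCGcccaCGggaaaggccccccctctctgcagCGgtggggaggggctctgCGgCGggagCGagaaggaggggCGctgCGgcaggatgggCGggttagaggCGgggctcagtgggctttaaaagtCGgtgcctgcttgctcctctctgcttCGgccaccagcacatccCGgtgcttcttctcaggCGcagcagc
Plagl1: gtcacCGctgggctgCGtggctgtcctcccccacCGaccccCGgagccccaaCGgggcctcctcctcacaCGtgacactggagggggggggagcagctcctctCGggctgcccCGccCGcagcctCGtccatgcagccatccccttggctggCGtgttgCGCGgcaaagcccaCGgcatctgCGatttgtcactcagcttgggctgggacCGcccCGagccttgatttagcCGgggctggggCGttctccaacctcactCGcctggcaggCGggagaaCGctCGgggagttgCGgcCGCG
Ndn: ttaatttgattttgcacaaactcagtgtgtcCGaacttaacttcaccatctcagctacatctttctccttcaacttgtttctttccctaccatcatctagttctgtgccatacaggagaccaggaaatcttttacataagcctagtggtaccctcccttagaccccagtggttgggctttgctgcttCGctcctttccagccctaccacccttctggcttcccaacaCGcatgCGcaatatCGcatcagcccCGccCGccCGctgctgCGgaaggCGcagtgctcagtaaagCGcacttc
Mcts2: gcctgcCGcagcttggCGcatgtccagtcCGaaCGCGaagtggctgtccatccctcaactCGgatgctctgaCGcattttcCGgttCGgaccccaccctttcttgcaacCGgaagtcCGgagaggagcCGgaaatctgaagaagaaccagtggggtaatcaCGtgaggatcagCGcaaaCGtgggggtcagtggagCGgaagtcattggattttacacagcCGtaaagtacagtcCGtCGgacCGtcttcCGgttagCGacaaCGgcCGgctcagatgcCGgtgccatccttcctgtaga
Zrsr1: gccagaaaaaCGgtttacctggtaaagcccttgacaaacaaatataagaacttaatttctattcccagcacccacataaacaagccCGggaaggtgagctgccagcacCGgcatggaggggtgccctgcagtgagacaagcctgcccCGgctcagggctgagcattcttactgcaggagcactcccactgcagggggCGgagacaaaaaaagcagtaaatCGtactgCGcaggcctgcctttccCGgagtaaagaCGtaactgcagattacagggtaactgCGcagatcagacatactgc

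Windows were used for 37 of the 45 genes. For the listed genes, windows on chromosome 18, where Impact lies, were left out. The median of the most CpG-rich windows of the 37 genes was 17 CpGs, and the median over all 32851 windows of this length was 7. The first takes only the most CpG-rich window of each gene and the second takes every annotated start, so these medians are not like for like. In CpG number the windows of Peg3, Mest and Ndn lay between those of Zrsr1 and Mcts2, and that of Plagl1 just above them. The hexamer TGCCGC, the core bound by the imprint-protecting zinc finger protein ZFP57 when its CpG is methylated, was searched on both strands. It was found at 2 places in the Mest window and once each in those of Plagl1 and Mcts2, and in none of the other 3 windows shown. A match, or its absence from a window, describes the letters only. Of the 37 genes, 11 had it in their most CpG-rich window. It was present in 11.6% of all windows and in 22.5% of the 14281 windows with at least 10 CpGs. These shares count every annotated start and not only the richest window of each gene, so the 11 of 37 is not set against them.

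Several imprinted genes with clear counts in Fh1_fl_fl had none or almost none in Rec. The number of genes at such levels was smaller in either clone. A gene was taken as near 0 in a group when its mean there was under 0.5 CPM while its mean in another group was at least 5 CPM. In Rec, 6 of the 24 imprinted genes with at least 5 CPM in another group met this (25%, against 2.18% of all genes that reached 5 CPM in another group): Cdkn1c, Grb10, Mest, Ndn, Peg3 and Zim1. In clone1, 2 of 24 did (Cdkn1c and Grb10; 0.888% of all genes), in clone19 1 of 24 (Grb10; 0.816%), and in Fh1_fl_fl none of 21 (1.23%). The genes next above the limit were Zrsr1 in Rec, with a mean of 5.65 CPM, and Zim1 in both clones, with 1.21 CPM in clone1 and 0.678 CPM in clone19. Of the 6 in Rec, Mest, Ndn and Peg3 are transcribed from the paternal copy, and Cdkn1c, Grb10 and Zim1 from the maternal copy. The list was made with such genes in mind, so nothing is read from these shares. The highest mean among those called near 0 was 0.369 CPM, for Grb10 in clone1. Counting all 43 genes, 19 had at most 3 counts over the 5 Rec libraries together, against 9 in Fh1_fl_fl, 14 in clone1 and 10 in clone19. The share of all genes at that level was not counted, so nothing is read from these numbers either.

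**Figure D1:**
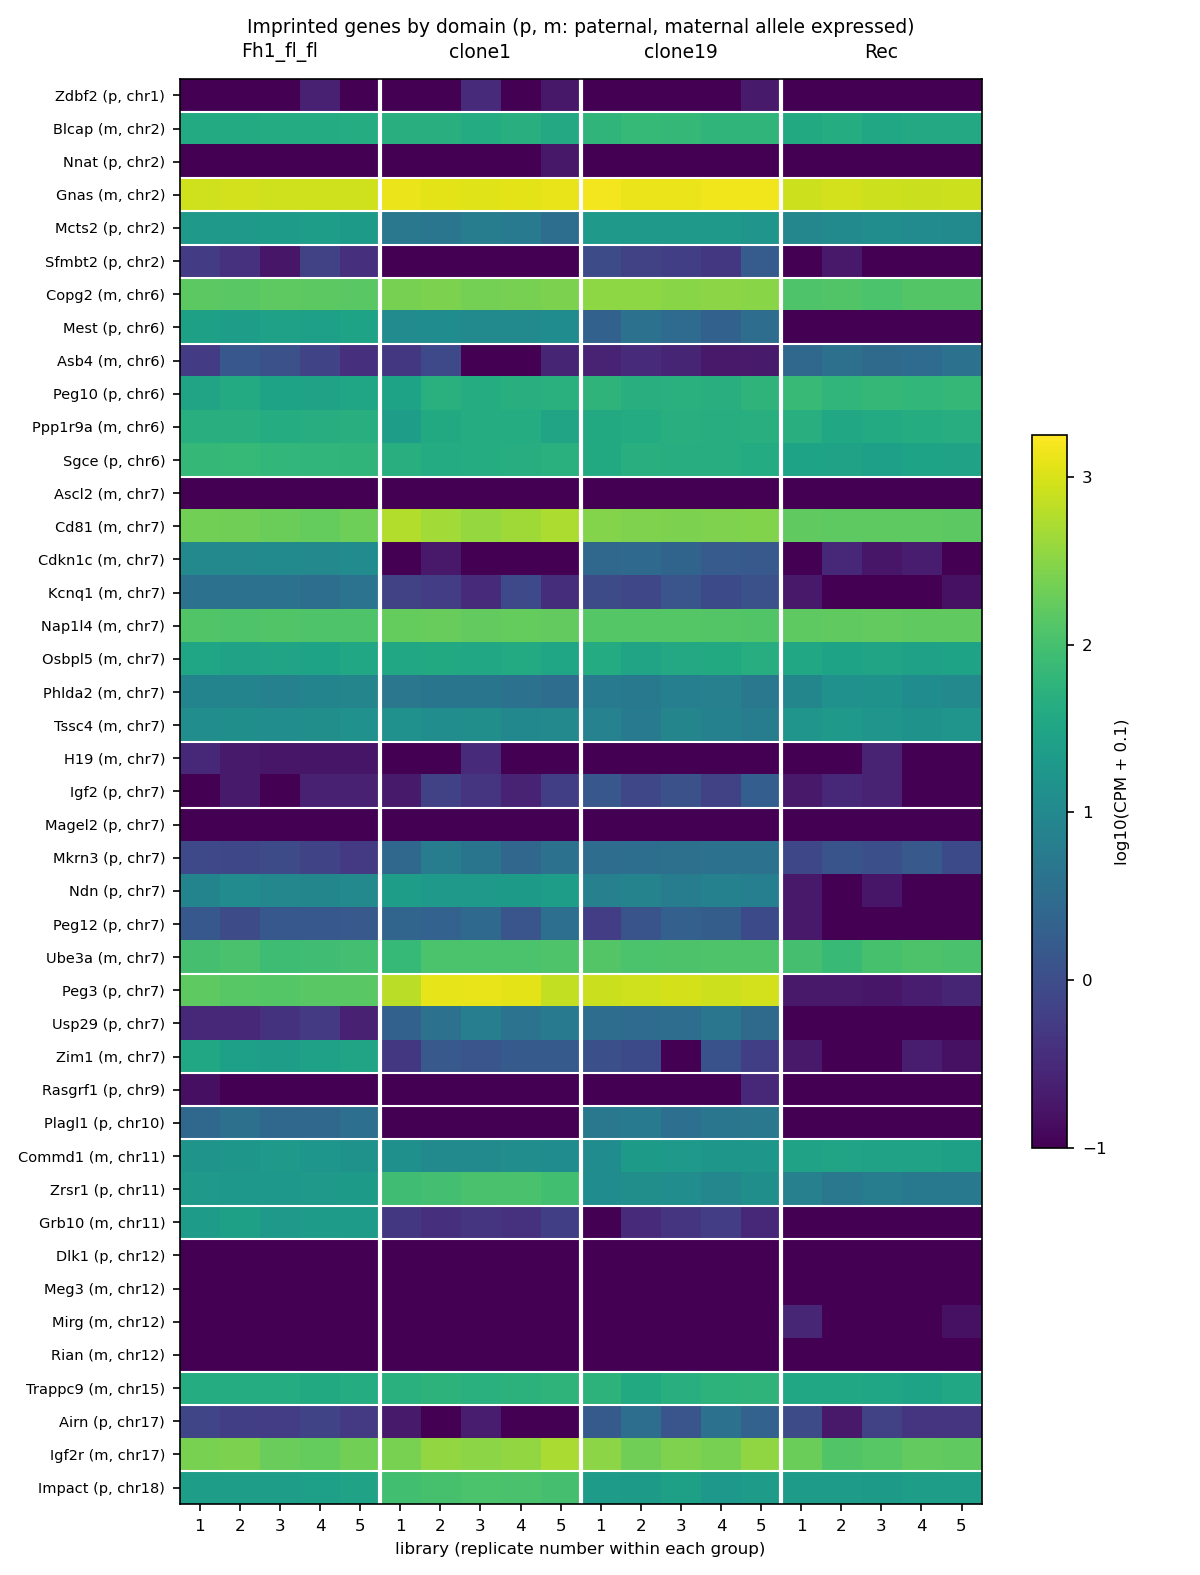
Heat map of log10(CPM + 0.1) for the 43 imprinted genes with a row in the count tables (rows, grouped by chromosome and domain, with p or m for the parental copy that is textbook knowledge) in the 20 libraries (columns, 5 per group). Peg3, Mest, Ndn and Grb10 are dark in the 5 Rec columns and lighter in Fh1_fl_fl, and 5 genes are dark in every column because they had 0 counts.

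Of the 43, 31 genes passed the count filter and were tested in edgeR's fit over all 20 libraries, and a gene was called when its fold change exceeded 2 with an adjusted p under 0.05 in edgeR's test against that threshold. In clone1 against Fh1_fl_fl, 6 were called higher and 8 lower (all 12671 genes tested 10.9% and 10.9%). In clone19 against Fh1_fl_fl, 5 were called higher and 5 lower, where 8.2% and 7.28% of all tested genes were. For Rec against Fh1_fl_fl, 1 was called higher and 12 lower (all genes 3.61% and 7.44%). Of these 12 lower genes, 10 had a mean under 0.5 CPM in Rec, the kind of level the list was chosen for, and they passed the count filter through other groups, so nothing is read from the number; the 2 others were Sgce and Zrsr1. Rec was also set against each clone. Against clone1, 4 were called higher and 12 lower (all genes 9.12% and 12.9%), and against clone19, 2 were called higher and 13 lower (all genes 5.11% and 10.4%). Genes with a mean under 0.5 CPM in 1 of the 2 groups made up 8 of the 12 and 11 of the 13 lower in Rec, and 5 of the 8 lower in clone1 than in Fh1_fl_fl. Between the 2 clones, 4 were called higher and 4 lower in clone1 (all genes 4.79% and 4.79%).

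The median size of the log2 fold change over the 31 genes and over all tested genes was 1.19 against 0.58 for clone1 and 0.67 against 0.48 for clone19 against Fh1_fl_fl, and 0.73 against 0.44 for Rec against Fh1_fl_fl. It was 1.29 against 0.61 for Rec against clone1, 1.05 against 0.51 for Rec against clone19 and 0.53 against 0.38 between the clones. Of the 12 genes lower in Rec than in Fh1_fl_fl, 8 are among the 13 tested genes transcribed from the paternal copy and 4 among the 18 tested from the maternal copy, and the 1 higher gene, Asb4, is maternal. Some of the 31 genes are imprinted only in certain tissues or transcripts, so nothing is read from this split. The 6 comparisons share groups of libraries, so their counts are not independent of each other. The genes were chosen with these counts known and with attention to levels near 0, and the medians include comparisons with a mean under 0.5 CPM. The shares and the median sizes are therefore a description, and nothing is read from them. In bulk RNA, fewer cells with a transcript and less transcript per cell cannot be told apart.

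In the Peg3 domain of chromosome 7, the 2 paternally transcribed genes were higher in both clones than in Fh1_fl_fl and almost absent in Rec, while the maternally transcribed gene was low in all 3. Peg3 (ENSMUSG00000002265, chr7:6703892-6730431, minus strand) encodes a zinc finger protein and is transcribed from the paternal copy. The 5 libraries of each group had 156, 142, 136, 146 and 148 in Fh1_fl_fl, 639.9, 1260.1, 1266, 1190.4 and 717 in clone1, 814, 861, 931, 832 and 928 in clone19 and 0.0934, 0.0982, 0.0817, 0.118 and 0.174 in Rec (in CPM). Every library of both clones was above every Fh1_fl_fl library, and every Rec library was below all the others. Within clone1, replicates 1 and 5 were lower than the other 3. Group means were 145 ± 7.36 CPM, 1015 ± 309.6 CPM, 873 ± 54.1 CPM and 0.113 ± 0.0363 CPM (SD, n = 5 each) in Fh1_fl_fl, clone1, clone19 and Rec. Its log2 fold change was 2.80 ± 0.14 (SE) for clone1 and 2.58 ± 0.14 (SE) for clone19 against Fh1_fl_fl. In Rec, 7 counts were found over 5 libraries, and the level was 1236-fold (95% counting interval 599.7 to 3075) lower than in Fh1_fl_fl and 8324-fold (95% counting interval 4039.9 to 20706) lower than in clone1.

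Usp29 (ENSMUSG00000051527, chr7:6730578-6967219, plus strand), which encodes a deubiquitinase, is transcribed from the same control region in the other direction, and its RefSeq promoter window shares 263 of 300 bases with the Peg3 window shown above. By library, the level in CPM was 0.196, 0.208, 0.324, 0.430 and 0.144 in Fh1_fl_fl, 1.99, 3.97, 6.49, 4.12 and 5.46 in clone1, 3.15, 2.99, 3.15, 4.52 and 2.86 in clone19 and 0 in each of the 5 Rec libraries. Like Peg3, it was higher in every library of both clones than in every Fh1_fl_fl library, and it had no counts in Rec. The level was 17.2-fold (95% counting interval 10.6 to 29.6) higher in clone1 and 13.2-fold (95% counting interval 8.07 to 23.01) higher in clone19 than in Fh1_fl_fl, and at least 66.6-fold lower in Rec than in clone19. Zim1 (ENSMUSG00000002266, chr7:6671269-6696450, minus strand), a zinc finger gene of the same domain that is transcribed from the maternal copy, had another pattern. Levels in CPM were 35.4, 24.8, 23.4, 27.4 and 30.3 in Fh1_fl_fl, 0.398, 1.45, 1.21, 1.53 and 1.47 in clone1, 0.994, 0.806, 0, 1.08 and 0.511 in clone19 and 0.0934, 0, 0, 0.118 and 0.0578 in Rec. All 15 libraries of clone1, clone19 and Rec were below all 5 of Fh1_fl_fl. The log2 fold change was -4.55 ± 0.21 (SE) in clone1 and -5.29 ± 0.24 (SE) in clone19, and Rec was 574-fold (95% counting interval 196 to 2787) lower than Fh1_fl_fl. The nearest tested neighbours outside the domain stayed in a narrower range, with means of 5.94, 12.7, 6.78 and 3.30 CPM for Zfp28 and 12.8, 7.04, 8.62 and 9.59 CPM for Zfp954 in Fh1_fl_fl, clone1, clone19 and Rec.

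Mest (ENSMUSG00000051855, chr6:30723547-30748465, plus strand) encodes an endoplasmic reticulum protein of the alpha/beta hydrolase fold family, is transcribed from the paternal copy and is named for its high level in mesoderm. Normalised levels were 25.6, 23.04, 26.6, 25.1 and 28.6 in Fh1_fl_fl, 11.04, 11.5, 10.6, 10.4 and 11.7 in clone1, 1.99, 3.68, 2.97, 1.97 and 3.17 in clone19, and 0 in each of the 5 Rec libraries (CPM). The 4 groups did not overlap and fell in the order Fh1_fl_fl, clone1, clone19, Rec. The log2 fold change against Fh1_fl_fl was -3.21 ± 0.13 (SE) in clone19. In Rec there was no count in any library, against 1821 counts in Fh1_fl_fl, so the level was at least 509-fold lower than in Fh1_fl_fl, at least 218-fold lower than in clone1 and at least 54.4-fold lower than in clone19. These bounds take 3 counts over the group as the limit that a count of 0 allows, and they cover counting error only. Copg2 (ENSMUSG00000025607, chr6:30747554-30896794, minus strand), a subunit of the coat of vesicles that return from the Golgi, overlaps the end of Mest on the other strand, with 912 exonic bases in common (23.1% of the exonic length of Mest). Its CPM values by library were 149.6, 143, 158, 149 and 147 in Fh1_fl_fl, 242, 255, 233, 241 and 257 in clone1, 337, 337, 313, 327 and 318 in clone19 and 122, 123, 112, 127 and 131 in Rec. Copg2 levels did not overlap between any 2 groups and were highest in clone19 and lowest in Rec. Rec against clone19 gave a log2 fold change of -1.41 ± 0.05 (SE; edgeR adjusted p = 1.82e-18). Whether the counting used strand is not given in the sources used here, so reads from the shared bases cannot be assigned to 1 gene of the pair. Neighbours outside the domain were counted in all groups, with means of 10.9, 7.50, 13.03 and 16.4 CPM for Cep41 and 121, 169, 163 and 130.2 CPM for Mkln1.

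Plagl1 (ENSMUSG00000019817, chr10:13060504-13131694, plus strand) encodes a zinc finger transcription factor that can arrest the cell cycle, and is transcribed from the paternal copy. Its mean did not reach 5 CPM in any group, yet it was absent from 2 of them. Library by library it was at 2.64, 3.63, 2.51, 2.65 and 3.53 in Fh1_fl_fl, 0 in each of the 5 clone1 libraries, 4.97, 5.75, 3.50, 4.62 and 5.01 in clone19, and 0 in each of the 5 Rec libraries (all in CPM). Libraries of clone1 and Rec had no count, while those of Fh1_fl_fl and clone19 had 206 and 196 counts in total and overlapped. The level in clone1 was at least 46.5-fold lower than in Fh1_fl_fl and at least 76.9-fold lower than in clone19, and that in Rec was at least 57.6-fold lower than in Fh1_fl_fl. The 2 clones, which carry the same Fh1 label, thus lay on opposite sides, clone1 with Rec and clone19 with Fh1_fl_fl. The neighbours Sf3b5 and Ltv1, which flank Plagl1 on either side, averaged 19.2, 16.4, 24.2 and 43.4 CPM and 60.7, 45.1, 61.5 and 126 CPM. Both had their highest mean in Rec.

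**Figure D2:**
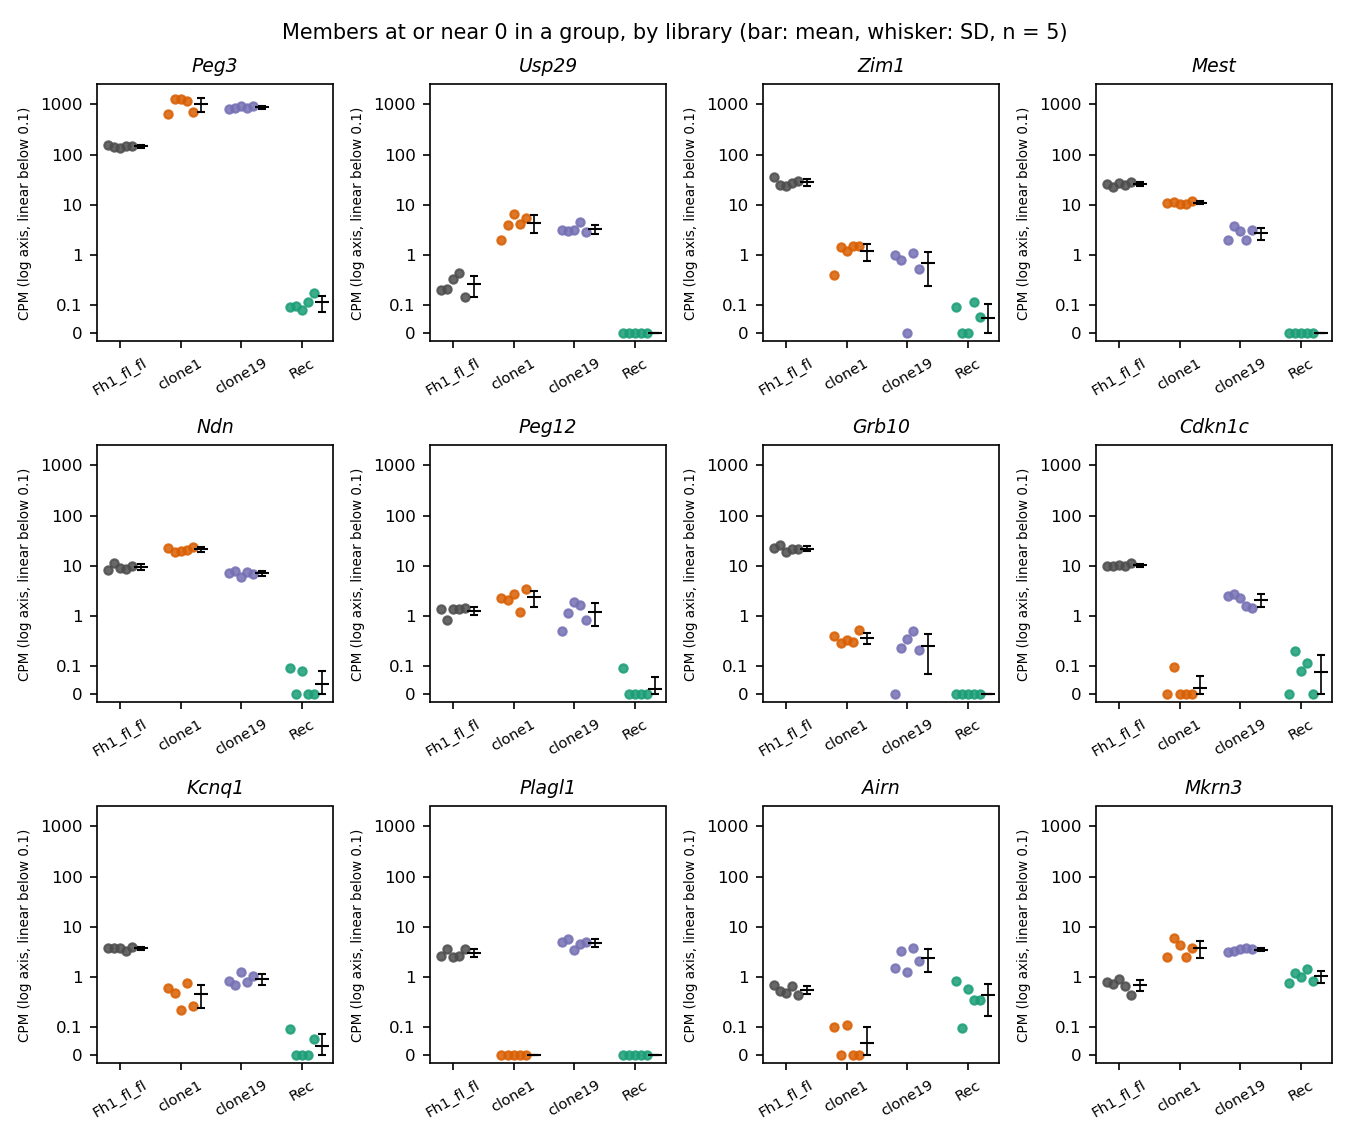
CPM in each library (points, 5 per group) of 12 imprinted genes that were at or near 0 in at least 1 group or low in all, on an axis that is logarithmic above 0.1 CPM and linear below it; the bar is the group mean and the whisker the SD. Mest, Usp29 and Grb10 have no count in any Rec library, Plagl1 has none in clone1 or Rec, and Peg3 lies between 0.0817 and 0.174 CPM in Rec.

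Grb10, an adaptor protein that restrains signalling from the insulin and insulin-like growth factor receptors, was counted only in Fh1_fl_fl above 1 CPM. The gene (ENSMUSG00000020176, chr11:11930508-12038683, minus strand) is transcribed from the maternal copy in most tissues. The 5 libraries of each group had 22.3, 25.7, 18.9, 21.98 and 21.3 in Fh1_fl_fl, 0.398, 0.290, 0.330, 0.305 and 0.520 in clone1, 0, 0.230, 0.350, 0.491 and 0.205 in clone19, and 0 in each of the 5 Rec libraries (in CPM). Every library of the other 3 groups was below every Fh1_fl_fl library. Against Fh1_fl_fl, the level was 57.9-fold (95% counting interval 36.5 to 97.99) lower in clone1, 80.5-fold (95% counting interval 44.9 to 162) lower in clone19 and at least 430.4-fold lower in Rec. Of the tested neighbours, Fignl1, 122 kb away, averaged 43.5, 22.4, 39.1 and 94.6 CPM in Fh1_fl_fl, clone1, clone19 and Rec. Sec61g, which lies 4462 kb away, averaged 42.1, 51.2, 41.7 and 53.5 CPM. Cobl lies between Grb10 and Sec61g and averaged 78.2, 215, 171 and 152 CPM. It was not taken as a neighbour because it is on the list of further imprinted genes below.

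The domain of Cdkn1c and Kcnq1 at the end of chromosome 7 held 9 listed genes, of which 8 had a row in the tables and Kcnq1ot1, the long noncoding RNA that silences the paternal copies of the domain, is not analysed here. Cdkn1c (ENSMUSG00000037664, chr7:143458339-143461050, minus strand) encodes the cyclin-dependent kinase inhibitor p57 and is transcribed from the maternal copy. By library, the level in CPM was 9.79, 10.1, 10.3, 9.74 and 11.2 in Fh1_fl_fl, 0, 0.0968, 0, 0 and 0 in clone1, 2.49, 2.76, 2.27, 1.57 and 1.43 in clone19 and 0, 0.196, 0.0817, 0.118 and 0 in Rec. Fh1_fl_fl was highest, clone19 lay between, and clone1 and Rec were at or near 0 and overlapped. With 1 count over clone1 and 4 over Rec, the level was 485-fold (95% counting interval 86.7 to 19171) lower in clone1 and 150.1-fold (95% counting interval 58.4 to 552) lower in Rec than in Fh1_fl_fl. The log2 fold change of clone19 was -2.31 ± 0.18 (SE). Kcnq1, which encodes a voltage-gated potassium channel and is also maternal, had means of 3.75 ± 0.273 CPM, 0.465 ± 0.228 CPM, 0.910 ± 0.213 CPM and 0.0302 ± 0.0433 CPM (SD, n = 5 each) in Fh1_fl_fl, clone1, clone19 and Rec. Fh1_fl_fl was above every other library, as for Cdkn1c. Over the 5 libraries there were 2 counts in Rec, 21 in clone1 and 36 in clone19. Ascl2, a transcription factor gene of the placenta in the same domain, had no count in any library.

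The other 5 genes of this domain were counted in every library and differed less between groups. Phlda2 (ENSMUSG00000010760, chr7:143501545-143503150, minus strand) limits placental growth. Levels in CPM were 8.03, 8.20, 7.29, 8.23 and 8.64 in Fh1_fl_fl, 4.68, 4.45, 4.40, 3.81 and 3.21 in clone1, 5.47, 5.18, 6.64, 7.08 and 4.91 in clone19 and 8.87, 14.1, 14.5, 11.4 and 10.1 in Rec. Rec was above and both clones were below Fh1_fl_fl without overlap. Its log2 fold change for Rec against clone1 was 1.52 ± 0.15 (SE; edgeR adjusted p = 4.97e-10). Cd81 (ENSMUSG00000037706, chr7:143052739-143067934, plus strand) encodes a tetraspanin of the cell surface. Normalised levels were 221, 213, 198, 176 and 206 in Fh1_fl_fl, 575, 459.8, 383, 436 and 524 in clone1, 286, 269.7, 258, 269.6 and 279 in clone19 and 161, 159, 155, 157 and 153 in Rec (CPM). The order was clone1, clone19, Fh1_fl_fl, Rec without overlap, and Rec differed from clone1 by a log2 fold change of -1.60 ± 0.08 (SE; edgeR adjusted p = 4.12e-16).

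Tssc4 (ENSMUSG00000045752, chr7:143069249-143071093, plus strand), a factor of spliceosome assembly, was highest in Rec. Its CPM values by library were 11.99, 13.2, 12.1, 12.3 and 14.1 in Fh1_fl_fl, 13.8, 12.2, 12.3, 9.46 and 9.79 in clone1, 7.62, 5.75, 8.57, 7.18 and 6.24 in clone19 and 16.5, 19.3, 16.2, 14.7 and 16.1 in Rec. The Rec libraries were above all others and clone19 below all others. Nap1l4 (ENSMUSG00000059119, chr7:143513579-143549106, minus strand) encodes a histone chaperone. Library by library it was at 123, 118, 123, 119 and 118 in Fh1_fl_fl, 177, 185, 168, 176 and 172 in clone1, 133, 135, 133, 131 and 126 in clone19 and 159.8, 164, 169, 163 and 165 in Rec (all in CPM). Its Fh1_fl_fl libraries were below all others and no pair of groups was called. Osbpl5 (ENSMUSG00000037606, chr7:143688762-143756985, minus strand), which encodes a lipid transfer protein, overlapped between all pairs of groups. The 5 libraries of each group had 32.6, 28.5, 30.5, 28.8 and 35.8 in Fh1_fl_fl, 33.9, 38.03, 35.8, 39.7 and 31.8 in clone1, 40.8, 30.5, 36.2, 38.2 and 44.99 in clone19 and 33.6, 29.5, 29.7, 26.8 and 29.04 in Rec (in CPM). Phlda2, Nap1l4 and Osbpl5 lie within the same stretch of chromosome as Cdkn1c, and none of them was near 0 in any library. The neighbouring genes Mrpl23 and Mrgpre averaged 8.57, 15.7, 12.00 and 14.6 CPM and 7.99, 8.51, 4.29 and 5.31 CPM.

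In the Prader-Willi and Angelman domain of chromosome 7, the paternally transcribed Ndn and Peg12 were almost absent in Rec while the paternal Mkrn3 and the maternal Ube3a were not. Ndn (ENSMUSG00000033585, chr7:62346569-62350262, plus strand) encodes necdin, a protein of the MAGE family. By library, the level in CPM was 8.08, 11.2, 9.15, 8.66 and 9.86 in Fh1_fl_fl, 23.1, 18.97, 19.3, 20.3 and 24.1 in clone1, 7.13, 7.83, 5.94, 7.37 and 6.85 in clone19 and 0.0934, 0, 0.0817, 0 and 0 in Rec. Each clone1 library was above, each clone19 library below and each Rec library far below those of Fh1_fl_fl. In Rec 2 counts were found over 5 libraries, so the level was 269.9-fold (95% counting interval 74.4 to 2234) lower than in Fh1_fl_fl and 628-fold (95% counting interval 174 to 5197) lower than in clone1. The log2 fold change of clone1 against clone19 was 1.58 ± 0.12 (SE). Peg12, which encodes a protein of the FRAT family that binds the kinase GSK3, had 1 count in all Rec libraries together. Its means were 1.28 ± 0.251 CPM, 2.35 ± 0.835 CPM, 1.21 ± 0.589 CPM and 0.0187 ± 0.0418 CPM (SD, n = 5 each) in Fh1_fl_fl, clone1, clone19 and Rec, and its 3 other groups overlapped. The ratio of Fh1_fl_fl to Rec was 77.1-fold (95% counting interval 13.5 to 3079).

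Mkrn3, a ubiquitin ligase of the same domain, was called higher in both clones. Its means were 0.695 ± 0.172 CPM, 3.81 ± 1.48 CPM, 3.51 ± 0.258 CPM and 1.03 ± 0.273 CPM (SD, n = 5 each) in Fh1_fl_fl, clone1, clone19 and Rec, with log2 fold changes against Fh1_fl_fl of 2.46 ± 0.25 (SE; edgeR adjusted p = 1.37e-09) in clone1 and 2.32 ± 0.26 (SE; edgeR adjusted p = 1.18e-08) in clone19. Rec and Fh1_fl_fl overlapped. Magel2 had no count in any library. Ube3a (ENSMUSG00000025326, chr7:59228750-59311536, plus strand) encodes a ubiquitin ligase whose imprinting is known from neurons. Levels in CPM were 98.5, 108, 86.2, 87.8 and 93.7 in Fh1_fl_fl, 71.2, 112, 113, 113 and 122 in clone1, 129, 109, 115, 118 and 119.9 in clone19 and 97.97, 74.1, 104, 117 and 109 in Rec. Most pairs of groups overlapped, none was called, and clone1 replicate 1 was the lowest of the 20 libraries. Snrpn, the spliceosome protein gene at the control region of this domain, is not analysed here. A locus model that overlaps it on the same strand of chromosome 7, Gm38393 (ENSMUSG00000000948, chr7:59974149-60005064, minus strand), covers 27.3% of the exonic bases of Snrpn and was examined after its values were seen. It averaged 1.58 ± 0.351 CPM, 20.01 ± 1.80 CPM, 11.8 ± 0.710 CPM and 4.59 ± 0.568 CPM (SD, n = 5 each) in Fh1_fl_fl, clone1, clone19 and Rec, so this region was not at 0 in Rec. Against Fh1_fl_fl it was called over 2-fold higher in clone1, clone19 and Rec. The log2 fold changes were 3.63 ± 0.13 (SE), 2.87 ± 0.14 (SE) and 1.5 ± 0.15 (SE) in that order. Rec was called lower than clone1 (-2.13 ± 0.11, SE) and clone19 (-1.37 ± 0.12, SE). Ndn and Peg12 were lower in Rec than in Fh1_fl_fl, so this locus model went the other way there. Neighbours Herc2 and Klf13, which lie 2997 and 1422 kb from the domain, averaged 68.7, 80.2, 65.1 and 51.6 CPM and 32.4, 31.7, 17.5 and 25.9 CPM.

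The 3 paternally transcribed genes Zrsr1, Impact and Mcts2 stood apart in clone1 and were counted in every library. Zrsr1 (ENSMUSG00000044068, chr11:22972005-22976496, plus strand), a paternally transcribed retrogene that encodes a splicing factor related to U2AF, lies inside Commd1 on the other strand. Normalised levels were 19.6, 18.4, 18.7, 19.2 and 20.7 in Fh1_fl_fl, 89.9, 96.6, 106, 106 and 93.2 in clone1, 11.4, 12.7, 12.2, 9.34 and 13.1 in clone19 and 6.91, 5.01, 6.05, 5.17 and 5.09 in Rec (CPM). The 4 groups did not overlap and fell in the order clone1, Fh1_fl_fl, clone19, Rec. Its log2 fold change was 2.34 ± 0.08 (SE; edgeR adjusted p = 7.42e-20) for clone1 against Fh1_fl_fl. For Rec against Fh1_fl_fl it was -1.78 ± 0.10 (SE; edgeR adjusted p = 9.15e-15). Between clone1 and clone19 it was 3.06 ± 0.09 (SE; edgeR adjusted p = 1.48e-20). Commd1 (ENSMUSG00000051355, chr11:22896136-22982382, minus strand), which takes part in copper handling and in NF-kB turnover and is transcribed mainly from the maternal copy, had its lowest mean in clone1 and its highest in Rec. Its CPM values by library were 15.96, 17.8, 19.3, 17.1 and 14.5 in Fh1_fl_fl, 13.5, 10.7, 10.7, 12.2 and 11.6 in clone1, 11.4, 20.9, 18.9, 17.6 and 17.7 in clone19 and 28.02, 30.5, 27.9, 27.8 and 25.5 in Rec. Every Rec library was above all the others and clone1 was below Fh1_fl_fl without overlap. Zrsr1 shares 412 exonic bases with annotated transcripts of Commd1 (9.17% of its exonic length). Reads of retrogenes can also be split with the gene they were copied from.

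Impact (ENSMUSG00000024423, chr18:12955852-12992950, plus strand) encodes an inhibitor of the amino acid sensing kinase GCN2. Library by library it was at 23.1, 23.7, 24.2, 24.6 and 27.9 in Fh1_fl_fl, 92.5, 104, 112, 109 and 99.9 in clone1, 21.7, 20.8, 26.2, 18.7 and 22.3 in clone19 and 21.7, 22.3, 20.9, 23.3 and 23.8 in Rec (all in CPM). All clone1 libraries were above the other 15 libraries, and the other groups overlapped each other. In clone1 the log2 fold change was 2.06 ± 0.07 (SE; edgeR adjusted p = 3.38e-19) against Fh1_fl_fl and 2.25 ± 0.08 (SE; edgeR adjusted p = 7.58e-19) against clone19. The next tested gene on 1 side, Osbpl1a, averaged 16.6, 45.8, 28.1 and 15.3 CPM and that on the other side, Zfp521, 3.79, 18.6, 9.56 and 0.604 CPM in Fh1_fl_fl, clone1, clone19 and Rec. Both neighbours also had their highest mean in clone1.

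Mcts2 (ENSMUSG00000042814, chr2:152687035-152687946, plus strand), a retrogene copy of the translation factor gene Mcts1 that lies inside H13, was lower in clone1. The 5 libraries of each group had 19.7, 19.6, 21.2, 23.6 and 20.3 in Fh1_fl_fl, 4.88, 4.55, 5.94, 5.80 and 3.29 in clone1, 18.7, 19.6, 19.4, 18.9 and 16.5 in clone19 and 9.25, 10.2, 12.01, 11.3 and 10.6 in Rec (in CPM). The highest clone19 library (19.56 CPM) lay just below the lowest of Fh1_fl_fl (19.61 CPM), every Rec library was below both groups, and every clone1 library was below Rec. In clone1 the log2 fold change was -2.12 ± 0.12 (SE; edgeR adjusted p = 4.02e-15) against Fh1_fl_fl and -1.95 ± 0.12 (SE; edgeR adjusted p = 2.02e-13) against clone19. The host gene H13 averaged 95.2, 87.5, 45.4 and 90.95 CPM, so its lowest mean was in clone19 and not in clone1. Zrsr1 and Mcts2, whose promoter windows are printed above beside those of the genes near 0 in Rec, had at least 5.01 CPM in every Rec library.

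**Figure D3:**
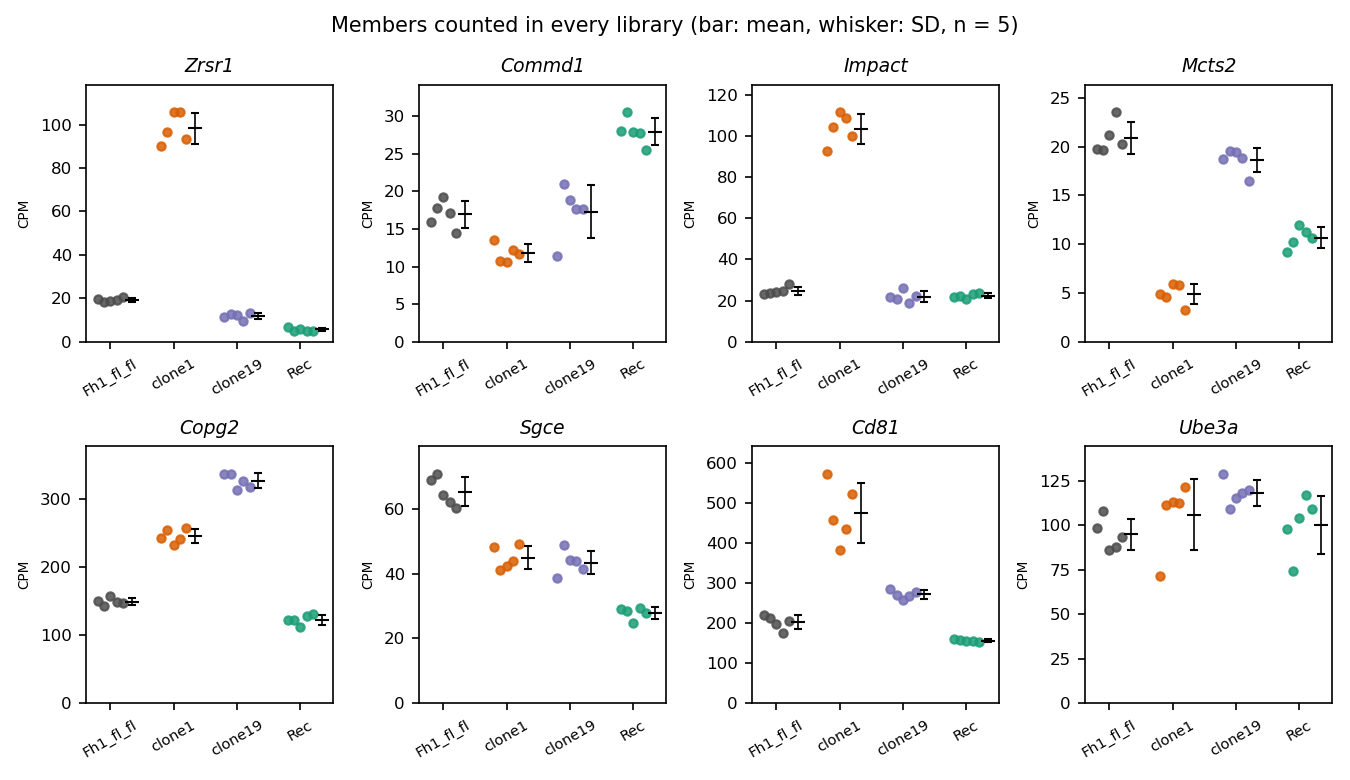
CPM in each library (points, 5 per group) of 8 imprinted genes that were counted in every library, on linear axes from 0; the bar is the group mean and the whisker the SD. Zrsr1 and Impact are highest in clone1, with means of 98.2 and 103 CPM, Mcts2 is lowest there, and Ube3a overlaps between most groups.

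The Peg10 domain on chromosome 6 held 2 paternally transcribed genes that were counted in every library, with opposite orders of the group means. Peg10 (ENSMUSG00000092035, chr6:4747306-4760517, plus strand), derived from a retrotransposon, is needed for the placenta. By library, the level in CPM was 30.6, 39.9, 29.6, 27.6 and 31.5 in Fh1_fl_fl, 28.8, 49.1, 42.8, 46.1 and 49.1 in clone1, 58.7, 46.03, 49.5, 46.9 and 58.4 in clone19 and 74.3, 61.5, 68.8, 65.1 and 66.8 in Rec. Sgce (ENSMUSG00000004631, chr6:4674350-4747207, minus strand), which encodes epsilon-sarcoglycan and starts next to Peg10 on the other strand, had the reverse order. Levels in CPM were 68.8, 70.9, 64.3, 62.2 and 60.4 in Fh1_fl_fl, 48.1, 41.2, 42.2, 43.9 and 49.1 in clone1, 38.8, 48.7, 44.2, 43.7 and 41.5 in clone19 and 29.05, 28.5, 24.8, 29.5 and 27.8 in Rec. Rec was above all other libraries for Peg10 and below all others for Sgce, whose log2 fold change for Rec against Fh1_fl_fl was -1.23 ± 0.07 (SE; edgeR adjusted p = 2.65e-14). No pair of groups was called for Peg10. Ppp1r9a (ENSMUSG00000032827, chr6:4902917-5165661, plus strand), the gene of the actin-binding protein neurabin, overlapped between all pairs. Normalised levels were 48.6, 46.4, 43.2, 44.4 and 47.6 in Fh1_fl_fl, 23.9, 38.6, 43.3, 43.5 and 30.3 in clone1, 38.8, 40.97, 45.3, 43.7 and 48.2 in clone19 and 45.7, 35.6, 40.3, 42.1 and 43.8 in Rec (CPM). Asb4, a maternal gene for a ubiquitin ligase adaptor, was low: its means were 0.755 ± 0.439 CPM, 0.269 ± 0.326 CPM, 0.154 ± 0.0551 CPM and 3.14 ± 0.528 CPM (SD, n = 5 each), with Rec above every other library and a log2 fold change against Fh1_fl_fl of 2.17 ± 0.31 (SE).

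Igf2r (ENSMUSG00000023830, chr17:12682406-12769664, minus strand), the receptor that clears insulin-like growth factor 2, is transcribed from the maternal copy, and Airn, the noncoding RNA that starts inside it on the other strand, from the paternal copy. Its CPM values by library were 249, 256, 186, 175 and 219 in Fh1_fl_fl, 246, 364, 321, 368 and 515 in clone1, 327, 209.8, 268, 237 and 348 in clone19 and 199.6, 127, 139, 169 and 164 in Rec. Most groups overlapped and none of the 6 comparisons was called. Airn stayed under 4 CPM in every library, with means of 0.553 ± 0.107 CPM, 0.0419 ± 0.0575 CPM, 2.39 ± 1.15 CPM and 0.442 ± 0.279 CPM (SD, n = 5 each) in Fh1_fl_fl, clone1, clone19 and Rec. Its clone19 libraries were above all the others, clone1 had 2 counts over 5 libraries against 40 in Fh1_fl_fl, and the ratio of clone19 to clone1 was 61.2-fold (95% counting interval 16.5 to 512). The 2 genes share no exonic base in the annotation.

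For 3 further genes no comparison was called. Blcap (ENSMUSG00000067787, chr2:157556362-157571274, minus strand), which spans Nnat on the other strand, was above the Fh1_fl_fl, clone1 and Rec libraries in every clone19 library. Library by library it was at 39.3, 38.8, 41.6, 40.9 and 42.03 in Fh1_fl_fl, 48.7, 46.6, 40.5, 47.4 and 36.8 in clone1, 59.2, 69.4, 68.01, 59.5 and 60.8 in clone19 and 38.5, 42.6, 33.8, 37.2 and 36.1 in Rec (all in CPM). Gnas (ENSMUSG00000027523, chr2:174284320-174346744, plus strand) encodes the stimulatory G protein alpha subunit and is a complex locus with maternal, paternal and biallelic transcripts that the gene count sums. The 5 libraries of each group had 883, 902, 892, 890.0 and 882 in Fh1_fl_fl, 1339, 1171, 1120.5, 1185 and 1278 in clone1, 1472, 1358, 1349, 1444 and 1451 in clone19 and 839.8, 928, 845, 809.7 and 844 in Rec (in CPM). Both clones were above all Fh1_fl_fl libraries. Trappc9 (ENSMUSG00000047921, chr15:72589620-73061204, minus strand) encodes a subunit of a vesicle tethering complex. By library, the level in CPM was 42.1, 42.9, 42.6, 37.9 and 42.5 in Fh1_fl_fl, 50.2, 55.1, 49.4, 54.1 and 58.3 in clone1, 55.02, 37.9, 47.4, 55.3 and 57.8 in clone19 and 34.3, 35.7, 33.01, 29.5 and 34.1 in Rec. Its Rec libraries were below all the others.

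In all, 19 of the 43 genes had means under 5 CPM in all groups. Airn, Asb4, Kcnq1, Mkrn3, Peg12, Plagl1 and Usp29 are given above. Sfmbt2, a Polycomb group gene, had 25 counts in Fh1_fl_fl and 33 in clone19, against 0 in clone1 and 1 in Rec. Plagl1 had no count in clone1 and Rec either. Igf2, the fetal growth factor, had its highest mean in clone19, 1.08 ± 0.471 CPM (SD, n = 5), and at most 0.337 CPM in the other groups. H19, the noncoding RNA of the same domain, had 8 counts in Fh1_fl_fl and at most 2 in each other group. Ascl2, Dlk1, Magel2, Meg3 and Rian had no count in any of the 20 libraries, and Mirg, Nnat, Rasgrf1 and Zdbf2 had at most 3 counts in each group. All 4 genes of the Dlk1 to Mirg domain on chromosome 12 are among these, so no difference between groups could be detected there. The number at 0 counts was 12 of 43 in Rec, 9 in clone1, 8 in clone19 and 7 in Fh1_fl_fl. The share of all genes at 0 counts was not counted, so nothing is read from these numbers.

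Genes beside the imprinted domains were mostly counted in Rec. For each of the 19 domains the nearest protein-coding gene on each side that passed the count filter and was on neither imprinted list was taken, which gave 37 genes at distances of up to 4462 kb. Of the 33 with at least 5 CPM in another group, 1 was near 0 in Rec, as were 2.18% of all genes that reached 5 CPM in another group. It was Adam23, beside Zdbf2, which was also at 0 in Fh1_fl_fl and averaged 0, 16.1, 1.31 and 0 CPM in Fh1_fl_fl, clone1, clone19 and Rec. The imprinted genes were chosen with levels near 0 in view and the neighbours by position and the count filter, so nothing is read from a contrast between them. Neighbours did differ between groups. Of the 37, 9 higher and 3 lower were called over 2-fold in clone1 and 5 higher and 2 lower in clone19 against Fh1_fl_fl, 1 higher and 2 lower in Rec against Fh1_fl_fl, 4 higher and 9 lower in Rec against clone1, 1 higher and 5 lower in Rec against clone19 and 3 higher and 2 lower in clone1 against clone19. Over all tested genes the shares called higher and lower were, in that order, 10.9% and 10.9%, 8.2% and 7.28%, 3.61% and 7.44%, 9.12% and 12.9%, 5.11% and 10.4%, and 4.79% and 4.79%. Below 5 CPM in all groups, Itih2 beside Sfmbt2 averaged 0.0143, 4.10, 2.15 and 0 CPM. Khdrbs3, the neighbour of Trappc9 on 1 side at 3488 kb, averaged 3.85, 0.404, 3.02 and 0 CPM.

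**Figure D4:**
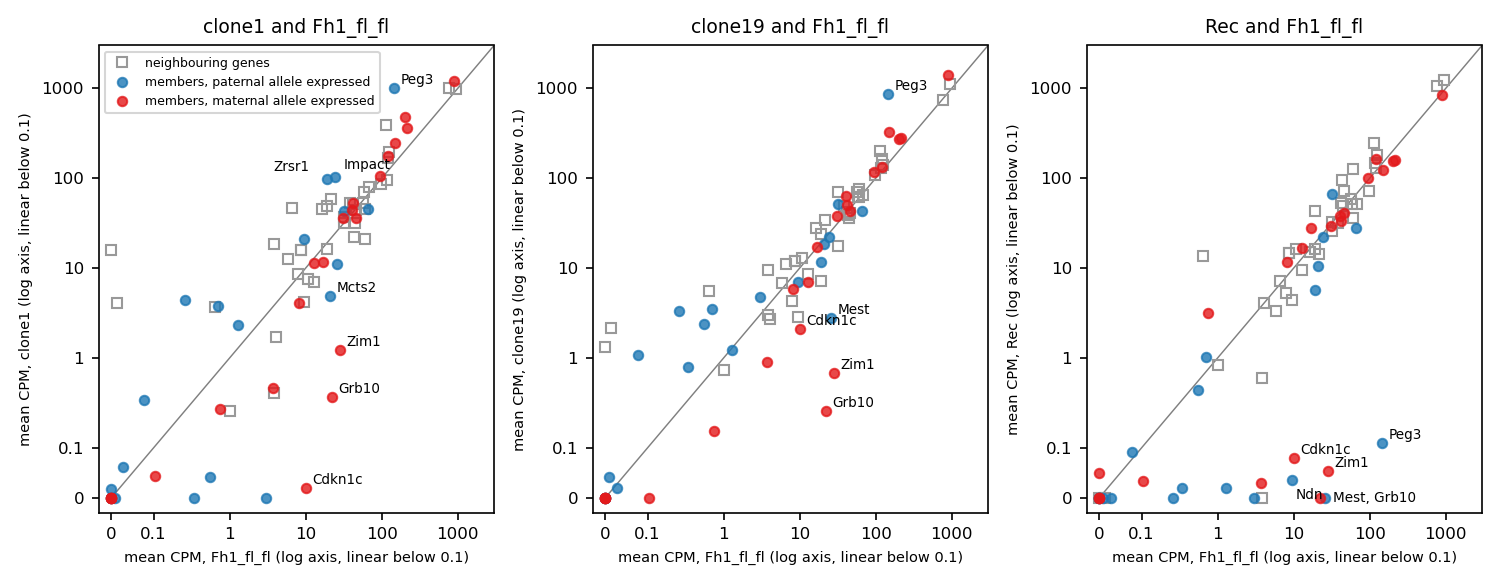
Mean CPM in clone1, clone19 and Rec (vertical axes) against mean CPM in Fh1_fl_fl (horizontal axes), on axes that are logarithmic above 0.1 CPM and linear below it, for the 43 imprinted genes (filled circles, coloured by the parental copy that is textbook knowledge) and 37 neighbouring genes (open squares); the line marks equal means. In the Rec panel Peg3, Zim1, Cdkn1c, Ndn, Mest and Grb10 lie near the bottom and most open squares lie near the line. The imprinted genes and the neighbours were chosen by different rules.

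Genes that set, keep or change DNA methylation and imprinted marks, the Tet genes among them, were examined as a separate list of 20, of which 16 were tested. DNMT1, the enzyme that copies methylation at replication, and UHRF1, which brings it to newly copied DNA, act with the zinc finger protein ZFP57, the scaffold TRIM28 and the histone methyltransferase SETDB1. Of the 16, 1 higher and 2 lower were called in clone1, 1 higher and 2 lower in clone19 and 1 higher and 1 lower in Rec, each against Fh1_fl_fl, and 4 higher and 1 lower in Rec against clone1, 3 higher and 0 lower in Rec against clone19 and 1 higher and 0 lower in clone1 against clone19. The shares of all tested genes given above for each comparison apply here as well.

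Uhrf1 was higher in Rec than in every library of the other groups. Levels in CPM were 78.6, 83.4, 68.3, 73.6 and 78.2 in Fh1_fl_fl, 70.5, 72.7, 75.9, 70.01 and 65.4 in clone1, 73.6, 69.05, 76.8, 83.4 and 88.04 in clone19 and 197, 188, 175, 181 and 182 in Rec. Its log2 fold change for Rec was 1.38 ± 0.07 (SE; edgeR adjusted p = 2.16e-16) against clone1 and 1.24 ± 0.07 (SE; edgeR adjusted p = 4.47e-15) against clone19. Dnmt1 was lowest in clone1 and highest in Rec. Normalised levels were 174, 179, 154, 159 and 169.5 in Fh1_fl_fl, 76.8, 82.6, 90.4, 84.8 and 91.1 in clone1, 179.7, 126, 156, 153 and 184 in clone19 and 253, 218, 221, 224 and 232 in Rec (CPM). Rec against clone1 gave a log2 fold change of 1.43 ± 0.08 (SE; edgeR adjusted p = 4.99e-15), and clone19 overlapped Fh1_fl_fl. Trim28 had means of 279 ± 5.30 CPM, 282 ± 25.9 CPM, 267 ± 25.7 CPM and 516 ± 28.1 CPM (SD, n = 5 each) in Fh1_fl_fl, clone1, clone19 and Rec, with Rec above all other libraries and no pair called. Ctcf, the insulator protein that binds several control regions, was called in Rec against clone1, at 162 ± 4.54 CPM against 69.4 ± 4.59 CPM (SD, n = 5 each), a log2 fold change of 1.22 ± 0.06 (SE; edgeR adjusted p = 5.98e-16).

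Zfp57 was higher in both clones than in Fh1_fl_fl, and Rec and Fh1_fl_fl overlapped. Its CPM values by library were 33.97, 28.9, 28.4, 34.3 and 38.2 in Fh1_fl_fl, 113, 136, 133, 149 and 83.2 in clone1, 68.6, 98.7, 104, 80.7 and 78.6 in clone19 and 39.9, 35.8, 36.6, 33.2 and 38.2 in Rec. The log2 fold change against Fh1_fl_fl was 1.89 ± 0.12 (SE; edgeR adjusted p = 1.44e-13) in clone1 and 1.39 ± 0.13 (SE; edgeR adjusted p = 1.61e-10) in clone19. Setdb1 averaged 92.8 ± 5.70 CPM, 42.5 ± 5.57 CPM, 56.8 ± 2.66 CPM and 71.4 ± 3.64 CPM (SD, n = 5 each) in Fh1_fl_fl, clone1, clone19 and Rec and was below Fh1_fl_fl in every library of the other groups. Its call in clone1 was lost on leaving out 1 library in 15 of 20 cases, with log2 fold changes of -1.14 to -1.04. The 2 enzymes that set new methylation differed from each other. Dnmt3b averaged 5.03 ± 0.561 CPM, 0.919 ± 0.467 CPM, 0.301 ± 0.161 CPM and 3.49 ± 0.783 CPM (SD, n = 5 each), a log2 fold change of -2.43 ± 0.24 (SE; edgeR adjusted p = 6.54e-10) for clone1 and a ratio of 18.5-fold (95% counting interval 10.2 to 37.4) between Fh1_fl_fl and clone19, whereas Dnmt3a averaged 38.7 ± 1.33 CPM, 31.6 ± 1.87 CPM, 21.1 ± 2.72 CPM and 29.2 ± 2.41 CPM (SD, n = 5 each) with no pair called. Tet2, which oxidises methylated cytosine, averaged 6.24 ± 0.864 CPM, 4.64 ± 0.899 CPM, 0.351 ± 0.161 CPM and 2.17 ± 0.196 CPM (SD, n = 5 each), and Rec against Fh1_fl_fl had a log2 fold change of -1.54 ± 0.16 (SE; edgeR adjusted p = 1.60e-09). Its level was 18.5-fold (95% counting interval 10.9 to 34.1) lower in clone19 than in Fh1_fl_fl.

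**Figure D5:**
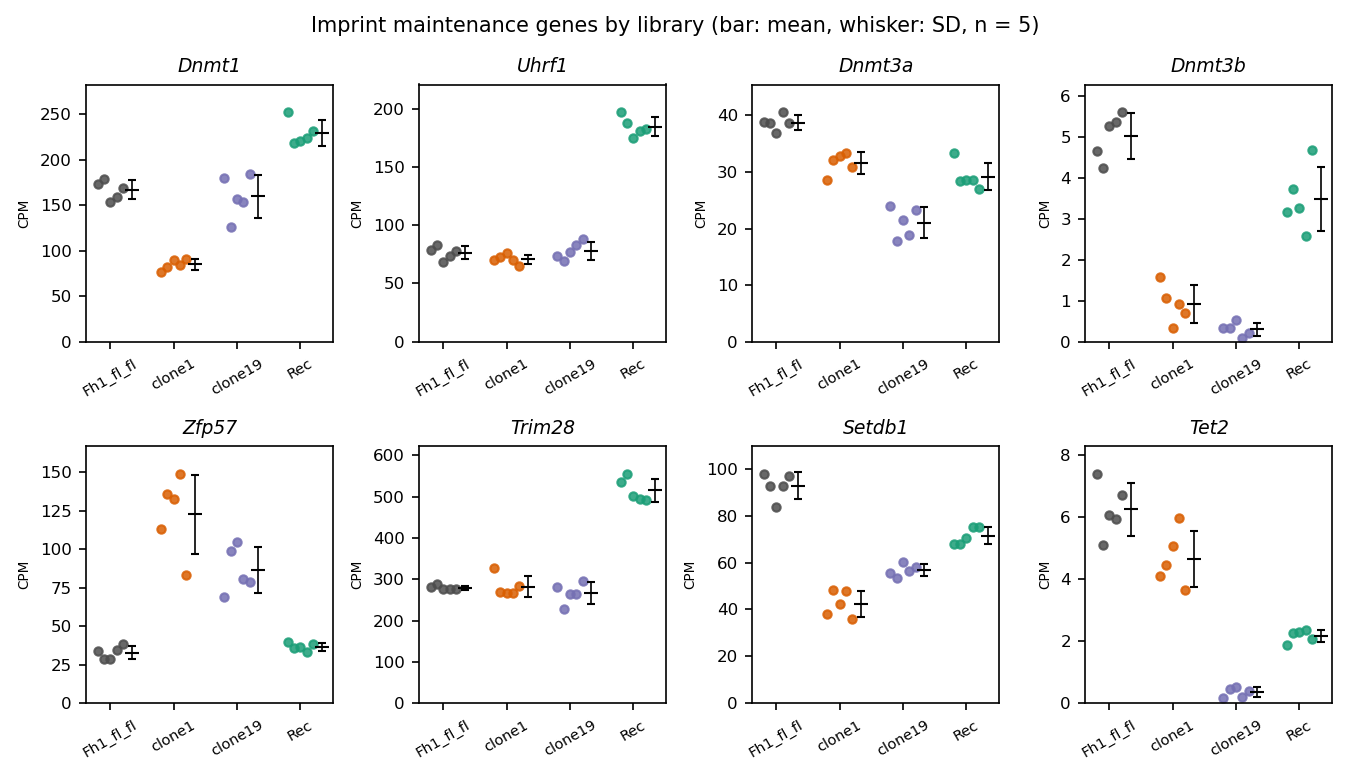
CPM in each library (points, 5 per group) of 8 genes that set or keep DNA methylation and imprinted marks or, for Tet2, oxidise methylated cytosine. Axes are linear from 0, the bar is the group mean and the whisker the SD. Uhrf1 and Trim28 are highest in Rec, with means of 185 and 516 CPM, Zfp57 is highest in the 2 clones, and Dnmt3b is lowest in them.

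A second list held 39 further genes that are known as imprinted in mouse or in another mammal, some of them only in certain tissues or transcripts, of which 35 had a row and 16 were tested. Against Fh1_fl_fl, 4 higher and 0 lower were called in clone1, 4 higher and 0 lower in clone19 and 0 higher and 1 lower in Rec. Rec against clone1 gave 0 higher and 4 lower, Rec against clone19 0 higher and 3 lower and clone1 against clone19 0 higher and 1 lower. Shares of all tested genes called higher were 10.9% for clone1 and 8.2% for clone19 against Fh1_fl_fl, and shares called lower were 7.44% for Rec against Fh1_fl_fl, 12.9% against clone1, 10.4% against clone19 and 4.79% between the clones. Rb1, the retinoblastoma tumour suppressor gene, is imprinted in human and is not known to be in mouse. Without it, 15 genes remain, with 3 higher and 0 lower in clone1, 3 higher and 0 lower in clone19 and 0 higher and 1 lower in Rec against Fh1_fl_fl, and 0 higher and 3 lower, 0 higher and 2 lower and 0 higher and 1 lower in the other 3 comparisons. Rb1 averaged 17.9 ± 2.10 CPM, 101 ± 11.3 CPM, 57.9 ± 5.48 CPM and 17.6 ± 2.82 CPM (SD, n = 5 each) in Fh1_fl_fl, clone1, clone19 and Rec. Its log2 fold change against Fh1_fl_fl was 2.48 ± 0.10 (SE; edgeR adjusted p = 3.99e-18) in clone1 and 1.68 ± 0.10 (SE; edgeR adjusted p = 4.71e-14) in clone19. Pon3, a lactonase gene, was called in both clones too, at 1.61 ± 0.17 (SE; edgeR adjusted p = 2.04e-09) and 1.97 ± 0.17 (SE; edgeR adjusted p = 4.79e-11). Herc3, a ubiquitin ligase gene, was lower in every Rec library than in every other, with a log2 fold change of -2.03 ± 0.07 (SE; edgeR adjusted p = 1.36e-19) against clone19. Dcn, the gene of the matrix proteoglycan decorin and also on the fibroblast marker list, averaged 0.298, 1.16, 8.49 and 0.310 CPM and was 26.2-fold (95% counting interval 17.2 to 41.8) higher in clone19 than in Fh1_fl_fl. Cobl, an actin nucleator gene, averaged 78.2, 215, 171 and 152 CPM and was called in clone1, Wars, the tryptophan tRNA synthetase gene, averaged 68.2, 90.4, 166 and 144 CPM and was called in clone19, and Inpp5f, a phosphatase gene, averaged 29.8, 62.9, 46.2 and 27.8 CPM and was called in Rec against clone1. The call of Inpp5f was lost without Rec replicate 2 or clone1 replicate 2 or 4 (log2 fold changes -1.14 to -1.13). That of Herc3 in Rec against Fh1_fl_fl was lost without Rec replicate 2 or 3 or Fh1_fl_fl replicate 4 or 5 (-1.15 to -1.13).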

How the data were processed

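RNA-seq libraries of 20 samples (4 groups of 5) were used. Per the labels' protocols, RNA was extracted with the Qiagen RNeasy Plus Mini kit and libraries followed standard Illumina protocols. The authors deposited raw read counts per Ensembl gene, 1 table per library. Build GRCm38 and TopHat2 2.0.4, HTSeq 0.5.3p9 and DESeq 1.10.1 are named in the submitters' processing notes, and the strand setting is not given in the sources used here. Summary lines of each table (non-unique alignments 28.8% to 40.3%, outside genes 3.28% to 6.73%, ambiguous 0.462% to 0.653% of all lines' counts) entered neither library sizes nor tests.

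CPM were computed on TMM-scaled library sizes. Genes passing filterByExpr (12671 of 39179) were fitted in 1 edgeR 4.0.16 quasi-likelihood model over the 20 libraries (R 4.3.3, common biological coefficient of variation 9.02%), with Benjamini-Hochberg adjusted p-values over all tested genes. Genes were called over 2-fold with glmTreat against a log2 fold change of 1 at an adjusted p under 0.05. The fit was tested on simulated data. For the 45 imprinted genes, no p is given where a gene had a mean under 0.5 CPM in any group. There, and for other genes in comparisons with such a group, the ratio of CPM has an exact 95% counting interval, or is a bound against 3 counts over the group. These cover counting error only.

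The members and lists were chosen with earlier results of these data known, and the textbook parental copy of each gene was added after the data were seen. Imprinted genes with at least 5 CPM in a group are given in every library, and the others by means or counts. Of the other lists, called genes and Dnmt1, Uhrf1, Trim28, Zfp57, Dnmt3a and Dnmt3b are named. Symbols (37607 of 39179 identifiers), positions and exons are from GENCODE on GRCm38, and promoters from RefSeq. Kcnq1ot1 and Snrpn are not analysed here. Alternatives were RLE size factors, library totals, no count filter, DESeq2 1.42.0, fits to the 2 groups compared, the replicate number as a block, other limits for near 0, each library left out and, added after seeing the data, the second list without Rb1.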

Additional observations from a re-analysis of the deposited data

Results flagged for a closer look

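In 4 of 87 groups of 5 libraries, 1 library of an imprinted gene lay far from the other 4, and chance gives about 1 in 20. Ube3a was at 71.2 CPM in clone1 replicate 1, where the next library had 112 CPM and the highest 122 CPM. Zim1 was at 0.398 CPM in the same library, with 1.21 to 1.53 CPM in the others. Mcts2 was at 16.5 CPM in clone19 replicate 5, below 18.7 to 19.6 CPM. Trappc9 was at 37.9 CPM in Fh1_fl_fl replicate 4, below 42.1 to 42.9 CPM.

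For 8 of the 31 tested imprinted genes the 2 clones with the same Fh1 label differed from each other over 2-fold. Of these, 4 were higher and 4 lower in clone1, where 4.79% and 4.79% of all tested genes were. The genes were chosen with levels near 0 in view, so nothing is read from the number. Since both clones were set against the same Fh1_fl_fl libraries, the difference between their changes is the difference between the clones. Zrsr1 was higher in clone1 by 3.06, Impact by 2.25, Mest by 1.99 and Ndn by 1.58 on the log2 scale, and Mcts2 had a log2 fold change of -1.95 for clone1 against clone19. The level of Cdkn1c was 96.6-fold (95% counting interval 16.9 to 3860.2) lower in clone1 than in clone19, that of Airn 61.2-fold (16.5 to 512) and that of Plagl1 at least 76.9-fold. No p is given for Mest, Ndn, Cdkn1c, Airn and Plagl1, which had a mean under 0.5 CPM in a group.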

How the results depend on the processing

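The numbers of imprinted genes called over 2-fold stayed within 1.5 times of the reported ones in all alternatives. With each library left out in turn, they ran from 13 to 15 for clone1 against Fh1_fl_fl, 10 to 11 for clone19, 13 to 13 for Rec, 15 to 17 for Rec against clone1, 14 to 15 for Rec against clone19 and 8 to 8 between the clones. Fits to only the 2 groups compared gave the lowest numbers for Rec, 12 against clone1 and 10 against clone19. The replicate numbers did not pair the libraries: same-numbered libraries had correlations of -0.197 to 0.163, and at most 1 of 5 correlated best with its own number. With the replicate block the numbers were 14, 10, 13, 16, 14 and 8.

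Leaving Rb1 off the second list, chosen after seeing the data, took its calls over the 6 comparisons from 17 to 13. Numbers near 0 moved with the limits. Asking for 2 CPM in another group in place of 5 gave 11 genes in Rec, 6 in clone1, 2 in clone19 and 1 in Fh1_fl_fl, and a limit of 1 CPM for near 0 gave 2 in clone19. The share of all genes at these other limits was not counted, so nothing is read from these numbers. Other scalings and leaving out any library of the group gave the reported 6 in Rec, 2 in clone1, 1 in clone19 and 0 in Fh1_fl_fl. Called pairs of a gene and a comparison were followed where both group means were at least 0.5 CPM. Of these 58 pairs, 0 reversed and 9 lost the call in some alternative (log2 fold changes given here). Called pairs with a group mean under 0.5 CPM were not followed singly. Mest in clone1 lost it with RLE size factors (-1.19), DESeq2 (-1.19) and without 13 of the 20 libraries, 1 at a time (-1.21 to -1.14). Setdb1 in clone1 lost it with the replicate block (-1.13), RLE (-1.10), DESeq2 (-1.10) and 2-group fits (-1.12). Tssc4 in Rec against clone19 lost it with the replicate block (1.24), DESeq2 (1.25), 2-group fits (1.25) and without Rec replicate 1 or 2 or clone19 replicate 2, 4 or 5 (1.19 to 1.27). Commd1 in Rec against clone1 lost it with DESeq2 (1.22) and without Rec replicate 2 or clone1 replicate 2 or 3 (1.20 to 1.22). Library totals ended the calls of Cd81 in clone1 (1.09), Copg2 in clone19 (1.0) and Uhrf1 in Rec (1.14), each against Fh1_fl_fl, and no count filter those of Copg2 (1.09) and Herc3 (-1.18). DESeq2 ended those of Herc3 (-1.17) and Inpp5f (-1.20). The causes were not tested. At these depths, 3 counts in a library stand for up to 0.501 CPM, so levels below that cannot be ranked in single libraries.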
